A study of Mus musculus with 22 samples.

Results

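Calcium channels, TRP channels and the calcium release channels of intracellular stores were examined in the mouse cochlea: 63 protein-coding genes of 21811 in all. They were taken by symbol as the Cacna, Cacnb and Cacng families, the Trpa, Trpc, Trpm and Trpv families, the mucolipins (Mcoln1 to Mcoln3), the polycystin-2 family (Pkd2, Pkd2l1 and Pkd2l2), the ryanodine receptors (Ryr1 to Ryr3), the inositol trisphosphate receptors (Itpr1 to Itpr3) and the Orai pores. Cacna1d and Cacnb2 were left out of the set. The pattern also takes Trpc4ap, a partner protein rather than a channel, and Trpc5os, a gene on the strand opposite Trpc5.

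All libraries came from PrestinCreERT2/+;RiboTagHA/+ mice given tamoxifen, which activates a Cre recombinase named for prestin, the motor protein of outer hair cells. RiboTag then adds an HA tag to a ribosomal protein, so that an HA antibody pulls down ribosomes with their mRNAs from cells that recombined. The pulldown (IP, labelled as enriched outer hair cells) was compared with input, the total RNA of the whole cochlea, at P8, P14, P28, 6 weeks and 10 weeks, with 2 libraries for each age and fraction and 3 at 10 weeks (22 libraries). Inputs and IPs share the genotype and tamoxifen, at 3 mg per 40 g body weight before 21 days of age and 9 mg per 40 g afterwards, so that dose and age cannot be told apart. The series' design text calls the replicates biological and gives P21 where the sample labels give P28, and neither says how many cochleae made a library.

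Calcium enters cells through voltage-gated channels, built from a Cacna1 pore with alpha2delta and beta subunits, through store-operated Orai pores and through many TRP channels. Ryanodine and inositol trisphosphate receptors release calcium from the endoplasmic reticulum, and mucolipins release it from endolysosomes. In hair cells calcium entry drives transmitter release, and in outer hair cells a store close to the membrane faces the efferent synapse. Cacng2 to Cacng5, Cacng7 and Cacng8 carry the name of calcium channel gamma subunits but are also auxiliary subunits of AMPA-type glutamate receptors.

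Values are read counts scaled to the library total (CPM), and 1 read was worth 0.0141 to 0.0325 CPM. Libraries held 30757875 to 71023032 reads, of which 14978013 to 39907763 fell in genes. Fewest genes reached 1 CPM in P8 input 2 (9853), P14 IP 1 (10810) and P28 IP 2 (10870), against 12393 to 15609 in the other 19 libraries. In P8 input 2 the single gene Gm42418 took 58.3% of gene reads, and most channel genes were low there. Of the 12 outer hair cell markers, 11 passed the test as higher in IP and none as lower, beside 20% and 12.5% of all genes tested. Their summed level was 292 to 1211 CPM in IP and 32.7 to 292 CPM in input. The marker that did not pass was Slc26a5, prestin itself, at 0.0655 to 53.1 CPM in IP and 0.301 to 10.5 CPM in input.

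Channel genes together made up 0.176% to 0.328% of the gene reads of an IP library and 0.0620% to 0.252% of those of an input library. Per kilobase of merged exon, the scale on which genes can be compared, Cacng4 had the highest mean level in IP at 28.1 ± 26.5 CPM per kb (SD, n = 11), followed by Orai3 at 21.5 ± 8.56 and Itpr1 at 12.7 ± 5.00. The first place of Cacng4 rested on P8 and P14, where its mean was 75.3 and 36.7 CPM per kb and that of Orai3 was 32.0 and 19.7. At P28, 6 weeks and 10 weeks the mean of Orai3 was the higher one, at 17.9, 26.6 and 14.6 CPM per kb against 11.9, 23.1 and 5.11 for Cacng4, though at 6 weeks by less than the spread of Cacng4 (SD 14.7, n = 2). By the median over the 11 IP libraries Orai3 led at 24.0 CPM per kb, before Itpr1 at 13.1 and Cacng4 at 12.7. In input the order began with Itpr1 at 19.0 ± 10.1 CPM per kb (SD, n = 11), the endolysosomal channel Mcoln3 at 17.8 ± 8.73 and Orai3 at 12.2 ± 5.43, neighbours that did not differ beyond their spread. Within subgroups, the leading members per kilobase in IP were Cacna1a among pores (2.38 ± 1.53), Cacna2d1 among alpha2delta subunits (5.61 ± 2.58), Cacnb3 among beta subunits (11.5 ± 6.14), Trpc4ap in the TRPC group (6.38 ± 1.21), Trpm7 in TRPM (5.28 ± 1.92) and Trpv4 in TRPV (4.70 ± 2.23 CPM per kb, SD, n = 11). In input the leading pore was Cacna1g, a T-type channel (1.29 ± 0.690 CPM per kb, SD, n = 11), and the leading gamma subunit was again Cacng4 (7.39 ± 8.58).

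**Figure D1:**
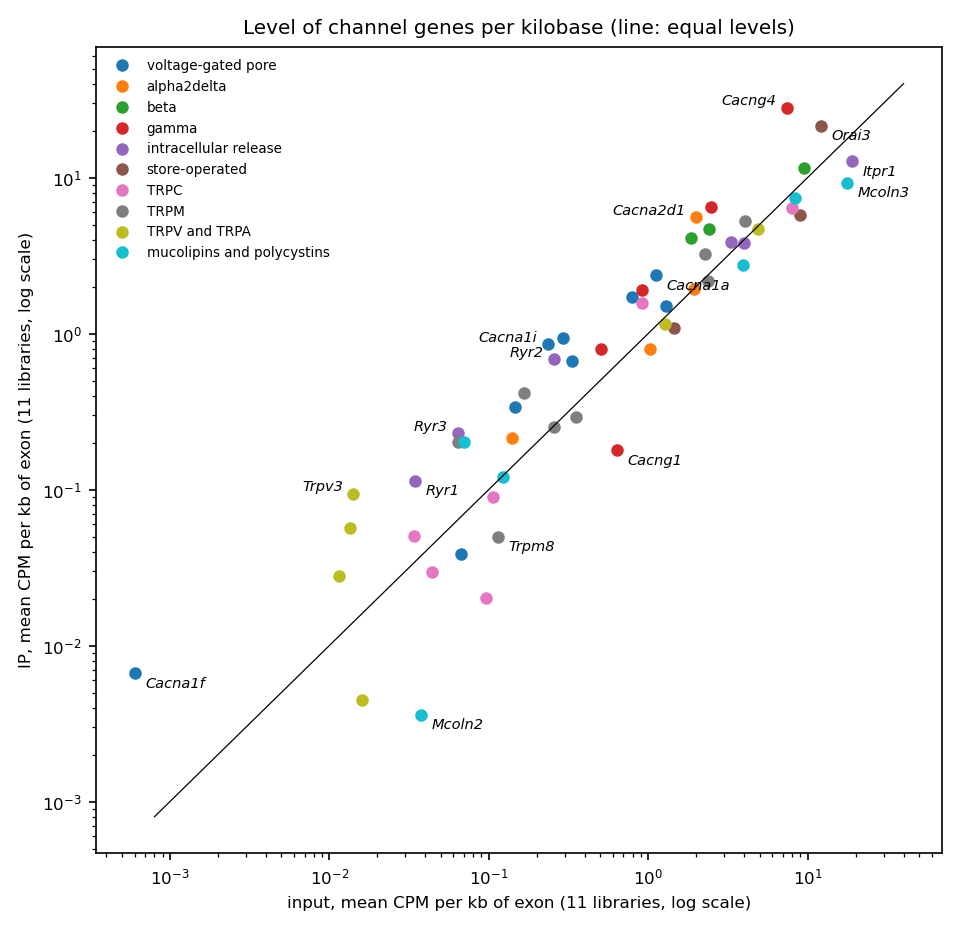
Mean level per kilobase of exon in 11 IP libraries (vertical, log scale) against 11 input libraries (horizontal, log scale) for channel genes with a read in both fractions; colours mark subgroups and the line marks equal levels. Cacng4 and Orai3 have the highest means in IP over all ages, Itpr1 and Mcoln3 lie right of the line, and the 3 ryanodine receptors lie above it.

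Of the 63 genes, 52 reached 1 CPM in at least 2 libraries and were tested. The 11 others were Cacna1f, Cacng6, Cacng7, Cacng8, Mcoln2, Trpa1, Trpc2, Trpc5os, Trpc6, Trpv1 and Trpv5. Cacna1f, the pore of photoreceptor synapses, peaked at 0.666 CPM, and the irritant receptor Trpa1 at 0.217 CPM. Trpv1, the capsaicin receptor of sensory neurons, peaked at 0.669 CPM. Cacng6, Cacng7, Cacng8, Trpc2, Trpc5os and Trpv5 were listed at 0 in all 22 libraries, where 3 reads would have been 0.0422 to 0.0975 CPM. Cacng6 to Cacng8 lie side by side on chromosome 7 in a run of 7 protein-coding genes that are all at 0, among them Myadm, and 3952 protein-coding genes were at 0 throughout, including the respiratory chain subunit Ndufs3. All exon bases of Trpc2 are shared with other annotated genes (Xndc1 and Xntrpc).

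The first comparison asked which channel mRNAs the tagged ribosomes held above or below the whole cochlea, over the 5 ages. Of the 52 tested channel genes 13 were higher in IP and 1 was lower (26.9%; limma on log2(CPM + 1), adjusted p under 0.05), against 32.5% of all 18737 genes tested, so that the share of channel genes was near that of all genes. In direction they were 25% higher and 1.92% lower, beside 20% higher and 12.5% lower among all genes. Those higher included pores Cacna1c, Cacna1e and Cacna1i, subunits Cacna2d1, Cacnb1, Cacnb4, Cacng2 and Cacng4, all 3 ryanodine receptors and Orai3, and the one lower was Mcoln3. Their log2 differences, given here relative to the median gene (itself 0.13), ran from 0.80 for Ryr1 to 1.71 for Cacng4, and the median over the 52 was 0.14. The test was of each difference from 0 before the median was taken off, and the adjusted p printed beside a value belongs to that test. A difference on this scale understates the change of genes with few reads.

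The count of lower calls depended on scaling. As the libraries are bulk, fewer cells of a type and less RNA per cell cannot be told apart. With TMM scaling 12 channel genes were higher and 6 lower, the added lower ones being Itpr1, Mcoln1, Orai1, Orai2 and Trpc4ap, and among all genes the split moved from 3747 higher and 2340 lower to 3804 and 4347. Without the 3 low-yield libraries 17 were higher and 5 lower, and without P14 input 1 alone 9 were higher and none lower. Transcript length moved with the result: channel genes had a median merged exon length of 7988.5 bases against 4442 for all tested protein-coding genes, and the share of all protein-coding genes higher in IP rose with length from 5.12% below 2000 bases to 46.9% above 12000. The corresponding counts of channel genes were 0 of 1 and 6 of 11. Reads outside genes also moved with it, at 20.2% to 47.7% in IP and 11.1% to 20.4% in input. The part of length and of reads outside genes in these calls was not tested.

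**Figure D2:**
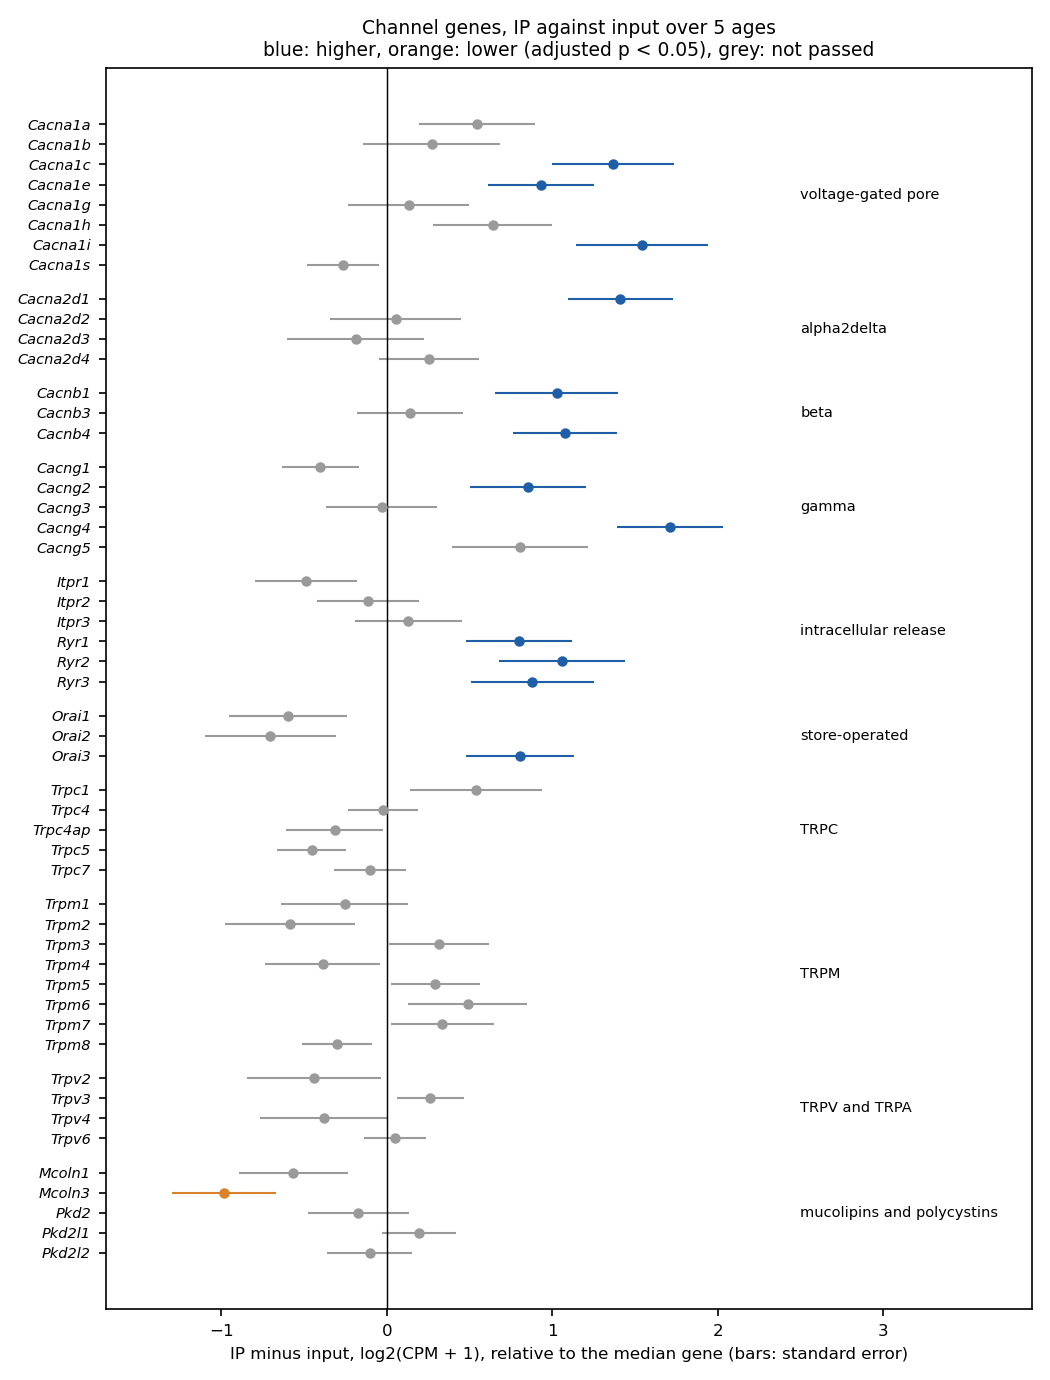
IP minus input for tested channel genes, as the log2(CPM + 1) difference over 5 ages relative to the median gene (points) with its standard error (bars), grouped by subgroup. Blue points passed as higher, with Cacng4 at 1.71 the farthest right, and Mcoln3 at -0.98 is the single orange point.

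**Figure D3:**
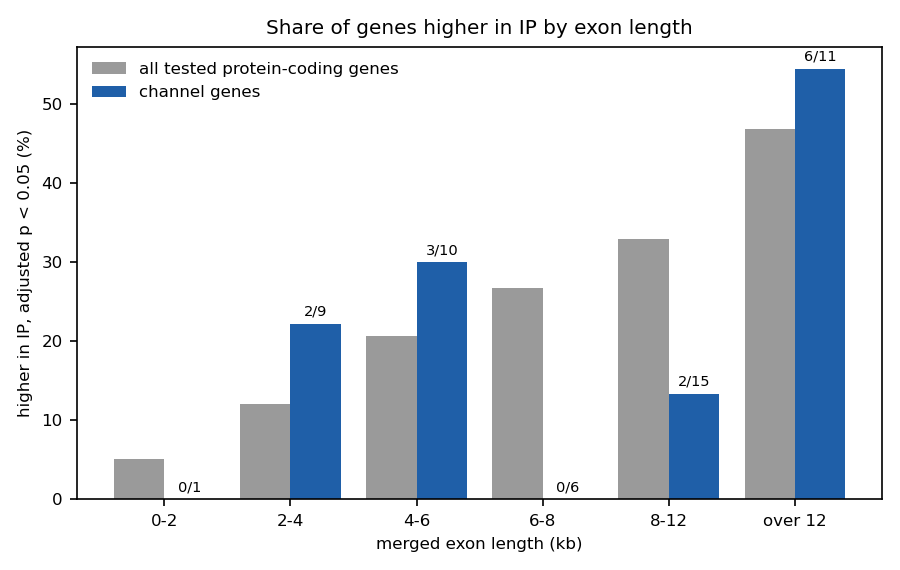
Share of genes higher in IP (vertical, %) by class of merged exon length (horizontal, kb), for all tested protein-coding genes (grey) and for channel genes (blue, with counts above the bars). Grey bars climb from 5.12% to 46.9%, and 6 of 11 channel genes in the longest class were higher.

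Among the voltage-gated pores 3 of 8 were higher in IP, beside 20% of all genes tested. Cacna1c, the L-type pore of heart and smooth muscle, ran from 7.0 to 42.9 CPM in IP (median 18.0) and at 2.87 to 10.6 CPM in input (median 6.82), with all IP libraries above all input libraries of the same age at 4 of 5 ages. Its log2 difference was 1.37 (SE 0.37, limma adjusted p = 9.8e-04). For this gene and those below, the share of all genes with IP and input libraries apart at fewer than 5 ages was not counted. Such an order, with 2 libraries on each side at most ages, is given as description only. Markers of smooth muscle and pericytes summed to 89.9 to 242 CPM in IP and 28.6 to 260 CPM in input. Of 7 tested 1 was higher and none lower, beside 20% and 12.5% of all genes. The part of these cells in the Cacna1c difference was not tested.

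Cacna1e, the R-type pore, was at 17.3 to 61.2 CPM in IP (median 49.99) and at 5.10 to 36.0 CPM in input (median 20.4). The difference was 0.93 (SE 0.32, limma adjusted p = 0.0072). Cacna1i, a T-type pore, was scarce in input at 0.0919 to 8.58 CPM and lay between 1.23 and 19.3 CPM in IP, a difference of 1.54 (SE 0.40, limma adjusted p = 7.1e-04). Each of these 3 calls held in all 32 alternatives tried.

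Each accessory subunit class held a member that was higher in IP, as were 20% of all genes tested. Cacna2d1 (chromosome 5, 15934691 to 16374511), the alpha2delta subunit that gabapentin binds, was the 1 channel gene with every IP library above every input library at each of the 5 ages, a pattern that 3.42% of all tested genes showed (0.256% showed the opposite). Its IP libraries held 55.6 and 55.5 CPM at P8, 95.5 and 70.5 at P14, 28.7 and 135 at P28, 80.6 and 105 at 6 weeks and 34.2, 59.0 and 46.7 at 10 weeks. Input libraries ran from 4.94 to 40.4 CPM (median 27.4). The difference was 1.41 (SE 0.32, limma adjusted p = 9.3e-05), and the fit with TMM scaling and without the 3 low-yield libraries, chosen after seeing the data, gave 1.0 with the median gene at 0.02 (adjusted p = 1.8e-04).

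Of the 3 beta subunits 2 were higher in IP, beside 20% of all genes tested. Cacnb1, the beta subunit of skeletal muscle, was at 6.74 to 36.2 CPM in IP and at 0.704 to 17.2 CPM in input, a difference of 1.03 (SE 0.37, limma adjusted p = 0.012). Without the 3 low-yield libraries the value before the median was taken off went from 1.16 to 0.72 (adjusted p = 0.029). Of 12 skeletal muscle markers none was higher and 4 were lower in IP, beside 20% and 12.5% of all genes tested. The list summed to 19.0 to 101 CPM in IP and 7.14 to 278 CPM in input. The part of muscle in the Cacnb1 difference was not tested. The skeletal muscle subunits Cacna1s and Cacng1 had medians of 0 CPM in IP and highest values of 3.22 CPM (P28 input 1) and 6.77 CPM (P28 input 2).

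Cacnb4, a beta subunit of brain calcium channels, was at 10.9 to 105 CPM in IP (median 37.5) and at 0.887 to 43.5 CPM in input (median 27.3). The difference was 1.08 (SE 0.32, limma adjusted p = 0.0019). About 16.0% of its exon bases are shared with A430018G15Rik on the opposite strand, and the strand setting of the counting is not given in the sources used here. Cacnb3, the most abundant beta subunit per kilobase, was at 10.2 to 102 CPM in IP and 5.52 to 59.7 CPM in input and did not pass (0.14, adjusted p = 0.54).

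Cacng4 (chromosome 11, 107732357 to 107794557, GRCm38) gave the largest difference among channel genes. In IP it stood at 257 and 281 CPM at P8, 138 and 124 at P14, 42.9 and 42.5 at P28, 45.3 and 120 at 6 weeks, and 8.32, 21.2 and 25.4 at 10 weeks. In input it stood at 109 and 15.7 CPM at P8, 52.9 and 34.0 at P14, 10.0 and 17.7 at P28, 10.4 and 16.6 at 6 weeks, and 7.11, 8.02 and 9.29 at 10 weeks. IP libraries were above input libraries at every age except 10 weeks, where 8.32 CPM in IP 1 fell below 9.29 in input 3. How many of all genes showed that order at 4 ages was not counted. Over all ages the difference was 1.71 (SE 0.32, limma adjusted p = 5.1e-06), and it passed under all 32 alternatives.

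The annotated 3′ UTR of Cacng4, 2423 bases long, holds the heptamer CTACCTC at 2 places. That is the match to the seed (bases 2 to 8) of let-7, a family of microRNAs known to accumulate as tissues mature, which bind mRNAs through that seed. Mature members share the seed, in capitals, and are shown because the same letters recur, complemented, in the sites below; sequences are from RefSeq (GRCm38.p6).
let-7a-5p: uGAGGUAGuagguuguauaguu
let-7b-5p: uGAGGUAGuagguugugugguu
let-7g-5p: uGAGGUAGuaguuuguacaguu
miR-98-5p: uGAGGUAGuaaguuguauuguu
The Cacng4 matches lie on the minus strand of chromosome 11 (GRCm38), at chr11:107732943-107732969 and chr11:107732723-107732749, with the heptamer in capitals.
Cacng4 site 1: ccctctccctgcCTACCTCcccaccca
Cacng4 site 2: ttccgatgactcCTACCTCttgtccgg
Cacnb4 also holds 2 matches in a 3′ UTR of 6169 bases on the minus strand of chromosome 2, at chr2:52430936-52430962 and chr2:52430682-52430708.
Cacnb4 site 1: atgatagatataCTACCTCttttctag
Cacnb4 site 2: aagcgaaaggaaCTACCTCtgtgccaa
Cacna2d4 and Trpm2 hold 1 match each, so that 4 of 52 tested channel genes (7.69%) have one, against 10.5% of 14809 tested protein-coding genes with an annotated 3′ UTR. Across those genes, 42.6% of the 1558 with a match and 17.2% of the 13251 without were higher in IP. With a 3′ UTR over 2000 bases the shares were 46.6% and 29.4%. Cacng4 and Cacnb4 were higher in IP, whereas Cacna2d4 (0.25, limma adjusted p = 0.34) and Trpm2 (-0.58, adjusted p = 0.39) did not pass. A fall in IP between P8 with P14 and 6 with 10 weeks was called for 1.35% of genes with a match and 0.672% without. With a 3′ UTR over 2000 bases these shares were 0.543% and 0.759%. Of the channel genes with a match only Cacng4 fell. Relative to the median gene, Trpm2 changed by 1.67 in IP (limma adjusted p = 0.057), and Cacnb4 rose by 1.98 in input (adjusted p = 0.0011). A match is a stretch of letters and not a proven site, microRNAs were not measured, and the heptamer was chosen after the values were seen.

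Cacng2, known as stargazin, was at 0.930 to 105 CPM in IP (median 38.0) and at 0.436 to 24.4 CPM in input (median 13.2). IP libraries were above input libraries at P14, P28 and 6 weeks and not at P8. At 10 weeks IP had 3.85, 11.7 and 9.72 CPM and input 13.2, 11.7 and 12.1, the order turned round with a near tie at 11.7. The difference over all ages was 0.85 (SE 0.35, limma adjusted p = 0.024), a call that 6 of 32 alternatives lost, which are TMM scaling without the low-yield libraries and leaving out P28 IP 2 (105 CPM), P8 IP 2, 6-week IP 2, P14 input 1 or 6-week input 2.

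The store release channels fell into 2 families with unlike counts. All 3 ryanodine receptors were higher in IP, beside 20% of all genes tested. None of the 3 inositol trisphosphate receptors passed, with differences of -0.49 for Itpr1, -0.11 for Itpr2 and 0.13 for Itpr3 (limma adjusted p = 0.39, 0.97 and 0.56). Merged exons were 18977 to 28790 bases long in the ryanodine receptors, 18319 in Itpr1, 14802 in Itpr2 and 9019 in Itpr3. Of all tested protein-coding genes above 12000 bases 46.9% were higher in IP. Whether the families differ from each other was not tested. Itpr1 led the release channels per kilobase. It was at 107 to 350 CPM in IP (median 240.3) and 32.0 to 626 CPM in input (median 319), and it alone made up 9.36% to 25.5% of the summed channel CPM in IP and 15.3% to 39.2% in input.

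Ryr2, the cardiac ryanodine receptor, was at 2.77 to 44.1 CPM in IP (median 21.6) and at 0.648 to 12.6 CPM in input (median 8.56). Its difference was 1.06 (SE 0.38, limma adjusted p = 0.011). IP libraries were above input libraries at 4 of 5 ages, P14 being the exception, an order not counted over all genes. The call was lost without P14 input 1 (adjusted p = 0.0503). Ryr3 was at 0 to 9.93 CPM in IP and 0 to 4.08 CPM in input, with 0.88 (SE 0.37, limma adjusted p = 0.028), a call lost in 11 of 32 alternatives including edgeR (adjusted p = 0.053). Ryr1, the skeletal muscle receptor, was at 0 to 4.87 CPM in IP (median 2.78) and 0.0141 to 1.95 CPM in input (median 0.362), with 0.80 (SE 0.32, limma adjusted p = 0.020), lost in 6 of 32. For Ryr1 and Ryr3 P28 IP 2 had no read, while P28 IP 1 had 4.18 and 8.60 CPM. Both calls were also lost when P14 IP 2, P28 IP 1, P8 input 2 or P14 input 1 was left out, with adjusted p up to 0.092 for Ryr1 and 0.14 for Ryr3 over all alternatives. The size depended on the test, with Ryr1 at 2.38 and Ryr3 at 2.28 on the log2 scale under edgeR against 0.93 and 1.01 here before the median was taken off.

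Of the store-operated pores 1 of 3 passed, beside 32.5% of all genes tested, and differences between them were not tested. Orai3, found only in mammals and also a subunit of arachidonate-regulated channels, was at 15.2 to 75.2 CPM in IP (median 51.4) and 2.46 to 44.6 CPM in input (median 26.2). The difference was 0.81 (SE 0.33, limma adjusted p = 0.021), lost in 4 of 32 alternatives: no filter on low values, and without P14 IP 2, P14 input 2 or 6-week input 2. Without the 3 low-yield libraries the value before the median was taken off went from 0.94 to 0.62 (adjusted p = 0.023). Orai1, the pore of T cell calcium entry, was at 6.60 to 35.0 CPM in IP and 2.25 to 43.2 CPM in input (-0.60, adjusted p = 0.32), and Orai2 was at 0.134 to 11.7 and 1.06 to 13.3 CPM (-0.70, adjusted p = 0.27).

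None of the 8 tested TRPM genes and none of the 4 tested TRPV genes passed, beside 32.5% of all genes tested. Trpm7, the channel kinase of magnesium balance, led the group per kilobase and was at 29.0 to 94.8 CPM in IP and 6.28 to 64.1 CPM in input. Trpm3, a heat and steroid sensor, was at 37.6 to 156 and 21.9 to 97.9 CPM. Trpm1, a melanocyte and retinal channel, was at 0 to 14.3 CPM in IP and 0.0927 to 14.1 CPM in input; melanocyte or intermediate cell markers summed to 270.3 to 637 CPM in IP and 93.6 to 1881 CPM in input. Trpv4, an osmosensor, was at 0.127 to 35.5 CPM in IP and 3.03 to 29.7 CPM in input.

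Mcoln3 (chromosome 3, 146117450 to 146141806), the endolysosomal channel mutated in varitint-waddler mice, which are deaf and lack pigment, was the channel gene lower in IP. It was at 12.5 to 58.9 CPM in IP (median 24.5) and 6.96 to 113 CPM in input (median 57.9). IP libraries were below every input library of their age at P14, 6 weeks and 10 weeks, an order not counted over all genes. The difference was -0.98 (SE 0.31, limma adjusted p = 0.029). This call was lost in 9 of 32 alternatives, with adjusted p up to 0.097, including leaving out P8 IP 2, P14 IP 1, P28 IP 1, 6-week IP 2, 10-week IP 3, P14 input 1, P28 input 1 or 6-week input 1. Of 6 stria marginal cell markers 4 were lower and 1 higher in IP, and of 7 tested melanocyte or intermediate cell markers 4 were lower and 1 higher. Among all genes tested 12.5% were lower and 20% higher, and lower calls were not particular to these lists. All 7 neutrophil or myeloid and all 6 erythroid markers were lower. So were 6 of 10 fibrocyte or mesenchyme markers (none higher) and 5 of 10 supporting cell markers (1 higher). No smooth muscle or pericyte, endothelium or outer hair cell marker was lower. The stria list summed to 554 to 1041 CPM in IP and 149.9 to 3123 CPM in input, and the melanocyte list as given above; the part of those cells in the Mcoln3 difference was not tested. Pkd2, the polycystin cation channel, was at 31.1 to 117 CPM in IP and 11.6 to 130 CPM in input and did not pass (-0.17, adjusted p = 0.94).

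**Figure D4:**
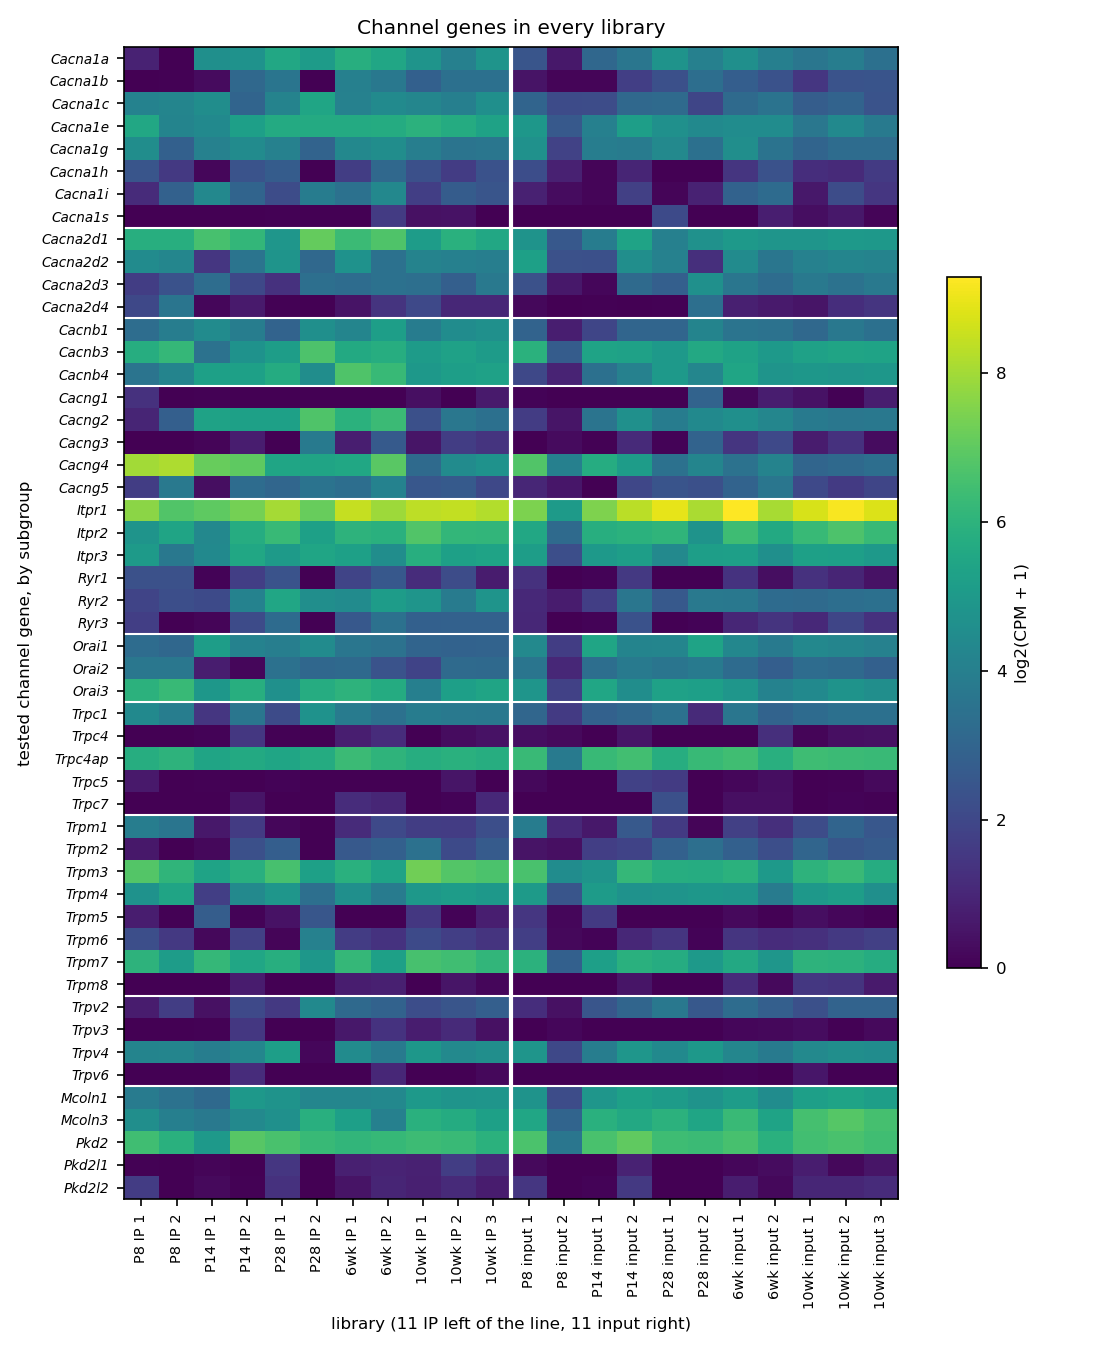
Level of tested channel genes (rows, by subgroup) in every library (columns, 11 IP left of the line and 11 input right), coloured by log2(CPM + 1). Itpr1 is the brightest row across input, Cacng4 is bright at P8 and P14 in IP, and the column of P8 input 2 is dark in most rows.

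The second comparison asked how channel mRNAs changed between P8 and P14 together and 6 and 10 weeks together. In IP, 4 of 52 tested channel genes rose and 1 fell (9.62%), beside 3.43% of all genes (2.69% higher, 0.742% lower). Those that rose were Cacna1a, Cacna1b, Ryr2 and Ryr3, and the one that fell was Cacng4. In input 2 rose, Cacnb4 and Itpr1, and Cacng4 fell (5.77%), beside 2.75% of all genes (2.33% higher, 0.416% lower). Changes are given relative to the median gene, which itself was at 0.29 in IP and 0.42 in input. The adjusted p beside each belongs to the change before that median was taken off, so the difference from the median gene was not itself tested. For Cacng4 the tested changes were -2.38 in IP and -1.93 in input. All IP libraries of 6 and 10 weeks lay above all of P8 and P14 for 5 tested channel genes (Itpr1, Itpr2, Pkd2l1, Ryr3 and Trpv2), and below them for Cacng4, beside 6.79% and 1.56% of all tested genes.

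Scaling changed the balance for all genes. The split in IP was 504 higher and 139 lower here and 722 and 987 with TMM scaling, and in input 437 and 78 here, 546 and 392 with TMM scaling, and 546 and 565 without the 3 low-yield libraries. In channel genes TMM scaling gave 3 higher and 1 lower in IP, and 3 higher and 1 lower in input. Single libraries also moved the counts. Without P8 input 1 more channel genes were called in input, and without P14 input 1 or 6-week input 1 fewer. Leaving out P8 input 1 kept P8 input 2 as the only P8 input library, and the median change over all genes in input went from 0.42 to 0.96. In IP the count was 1 without 6-week IP 1, 2 without P14 IP 1, and 3 without P8 IP 2, 6-week IP 2, 10-week IP 1, 10-week IP 3 or any 10-week input library. It was 8 without either P8 input library, which enter only through the shared estimate of the spread.

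Cacna1a (chromosome 8, 84388440 to 84640246), the P/Q-type pore of fast synapses, was near 0 in IP at P8, with 0.869 and 0.0246 CPM. It reached 23.9 and 25.6 CPM by P14, 46.2 and 33.0 at P28, 55.5 and 43.8 at 6 weeks, and 26.8, 15.5 and 27.2 at 10 weeks. Values rose from P8 to P14, a step that was not tested by itself and rests on 2 libraries per age, P14 IP 1 being low-yield. They were higher again at P28 and 6 weeks, and P14 values overlapped those of 10 weeks. The change was 2.24 (SE 0.55, limma adjusted p = 0.0029) and held in all 32 alternatives. Those that left out an input library or a P28 library could not move its estimate, only the shared spread. In input it went from 4.46 and 0.507 CPM at P8 to 11.6, 14.4 and 9.71 at 10 weeks (1.12, SE 0.55, adjusted p = 0.12). At P8 both IP values were below 4.46 CPM, and from P14 on every IP library was above every input library of its age.

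Cacna1b, the N-type pore, began in IP with 1 and 2 reads at P8, or 0.0202 and 0.0492 CPM. It was at 0.217 and 7.85 CPM at P14, 11.2 and 0.0212 at P28, 15.4 and 12.3 at 6 weeks, and 6.26, 9.88 and 9.87 at 10 weeks. The 2 low values after P8 are the low-yield libraries P14 IP 1 and P28 IP 2. The change was 2.40 (SE 0.65, limma adjusted p = 0.0084). It was lost in 4 of 32 alternatives: no filter, a fit of IP libraries alone, and without P14 IP 1 or 6-week IP 1 (adjusted p up to 0.21). Before the median was taken off it was 2.69, and 4.64 under edgeR (adjusted p = 0.024). In input the change was 1.29 (adjusted p = 0.16).

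Markers of spiral ganglion neurons, which use both pores, rose in the same comparisons. Of 12 such markers 8 rose in IP and 9 in input, and none fell, while 2.69% and 2.33% of all genes rose. Their summed level in IP was 228 to 683 CPM at P8 and P14 and 953 to 1848 CPM at 6 and 10 weeks; in input it was 63.7 to 1565 and 2059 to 3456 CPM. Over all ages 1 of the 12 was higher in IP and 4 were lower, beside 20% and 12.5% of all genes. The part of neuronal mRNA in these rises was not tested.

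Ryr2 in IP had 2.77 and 3.64 CPM at P8, 3.29 and 16.6 at P14, 44.1 and 23.0 at P28, 21.6 and 34.0 at 6 weeks, and 27.9, 13.7 and 26.7 at 10 weeks. The change was 1.78 (SE 0.60, limma adjusted p = 0.034), lost in 12 of 32 alternatives. Those are the pseudocount of 0.25, TMM scaling without the low-yield libraries, and leaving out either P8 IP library, P14 IP 1, either 6-week IP library, 10-week IP 1 or 3, or any 10-week input library (adjusted p up to 0.31 over all alternatives). Ryr3 rose from 2.26, 0.0246, 0.0930 and 3.34 CPM at P8 and P14 to 4.93, 9.93, 6.14, 6.47 and 6.33 CPM (1.65, SE 0.58, limma adjusted p = 0.042). The groups did not overlap, yet 24 of 32 alternatives lost this call, edgeR, DESeq2 and TMM scaling among them, with adjusted p up to 0.40.

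The stretches before the RefSeq starts of Cacna1b and Ryr2 are shown as examples from the genes called as rising in IP. Because both were picked by that call, their correlation over the same 11 IP libraries (r = 0.76) is no separate result. These libraries share ages and 2 low-yield libraries, and Cacna1b reached 0.90 with Ryr3. Each is the 250 bases before the start on the gene's own strand (GRCm38.p6), with matches of GGGCGG, the core of a GC box, on either strand in capitals.
Cacna1b, chr2:24763153-24763402, minus strand: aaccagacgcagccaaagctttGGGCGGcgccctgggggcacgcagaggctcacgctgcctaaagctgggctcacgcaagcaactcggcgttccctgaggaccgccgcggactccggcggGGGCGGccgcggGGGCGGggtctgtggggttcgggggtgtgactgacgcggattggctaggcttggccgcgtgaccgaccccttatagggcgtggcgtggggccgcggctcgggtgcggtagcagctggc
Ryr2, chr13:12106946-12107195, minus strand: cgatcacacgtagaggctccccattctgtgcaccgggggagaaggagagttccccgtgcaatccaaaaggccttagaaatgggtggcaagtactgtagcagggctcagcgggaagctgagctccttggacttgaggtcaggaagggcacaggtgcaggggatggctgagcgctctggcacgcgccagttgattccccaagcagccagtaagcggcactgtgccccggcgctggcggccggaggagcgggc
Cacna1b held 3 matches and Ryr2 none. GGGCGG was found in 32.7% of 32851 such windows and in 24 of the 61 windows (39.3%) of the 50 channel genes in the table. CCAAT was found once in Cacna1b and not in Ryr2 (33.8% of all windows), TATAAA in neither (12.4%), and the E-box pattern CANNTG 2 and 4 times (66.2%). GC content was 72% for Cacna1b and 63.2% for Ryr2, beside a median of 52.4% over all windows. These letters describe the windows and say nothing of a factor.

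Cacng4 fell in both fractions, by 2.67 in IP (SE 0.50, limma adjusted p = 0.0020) and by 2.35 in input (SE 0.50, adjusted p = 0.016). In IP the values of 124 to 281 CPM at P8 and P14 did not overlap the 8.32 to 120 CPM of 6 and 10 weeks. The IP call was lost only without 6-week IP 1 (adjusted p = 0.054). The input call was lost in 4 of 32 alternatives: no filter, input libraries alone, and without P14 input 1 or 6-week input 1 (adjusted p up to 0.18). Without P8 input 1, which held 109 CPM, the input value before the median was taken off went from -1.93 to -1.25, while the median gene went from 0.42 to 0.96. Of 10 fibrocyte or mesenchyme markers 4 fell in IP, where the list summed to 4471 to 5929 CPM at P8 and P14 and 2421 to 4302 CPM at 6 and 10 weeks, and none rose; in input 4 fell and 1 rose (1408 to 17660 and 6160 to 12328 CPM). Of 8 bone or cartilage markers 3 fell and 1 rose in each fraction, and the list went from 2395 to 14841 CPM down to 434 to 868 CPM in IP, and from 1802 to 13818 CPM to 1708 to 2478 CPM in input. Of 10 supporting cell markers 2 fell and 1 rose in IP (1610 to 2233 CPM at P8 and P14, 997 to 1669 CPM at 6 and 10 weeks). In input 1 fell and 1 rose (318 to 4329 and 1426 to 2721 CPM). These lists were not planned beside Cacng4 and are the only ones with a fall in IP. Of 12 outer hair cell markers none rose or fell in either fraction. Among all genes tested 0.742% fell in IP and 0.416% in input. The list planned beside Cacng4 was that of spiral ganglion neurons, and it went the other way. Of its 12 markers 8 rose in IP and 9 in input, and none fell. The part of any of these cells in the Cacng4 fall was not tested.

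Cacnb4 in input rose from 3.04 and 0.887 CPM at P8 and 9.75 and 16.1 at P14 to 43.5 and 27.3 at 6 weeks and 28.9, 27.6 and 29.3 at 10 weeks. The change was 1.98 (SE 0.49, limma adjusted p = 0.0011) and held in all 32 alternatives. Those that left out an IP library or a P28 library could not move its estimate, only the shared spread. In IP it was 0.96 (SE 0.49, adjusted p = 0.15). Itpr1 in input went from 176, 32.0, 177 and 319 CPM at P8 and P14 to 626 and 268 at 6 weeks and 418, 592 and 445 at 10 weeks (1.29, SE 0.48, limma adjusted p = 0.032). That call rested on P8 input 2: without it the change before the median was taken off went from 1.72 to 1.11 (adjusted p = 0.066). Itpr1 was lost in 9 of 32 alternatives, among them without P14 input 1, 6-week input 1 or any 10-week input library. In IP Itpr1 changed by 0.79 (adjusted p = 0.22).

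**Figure D5:**
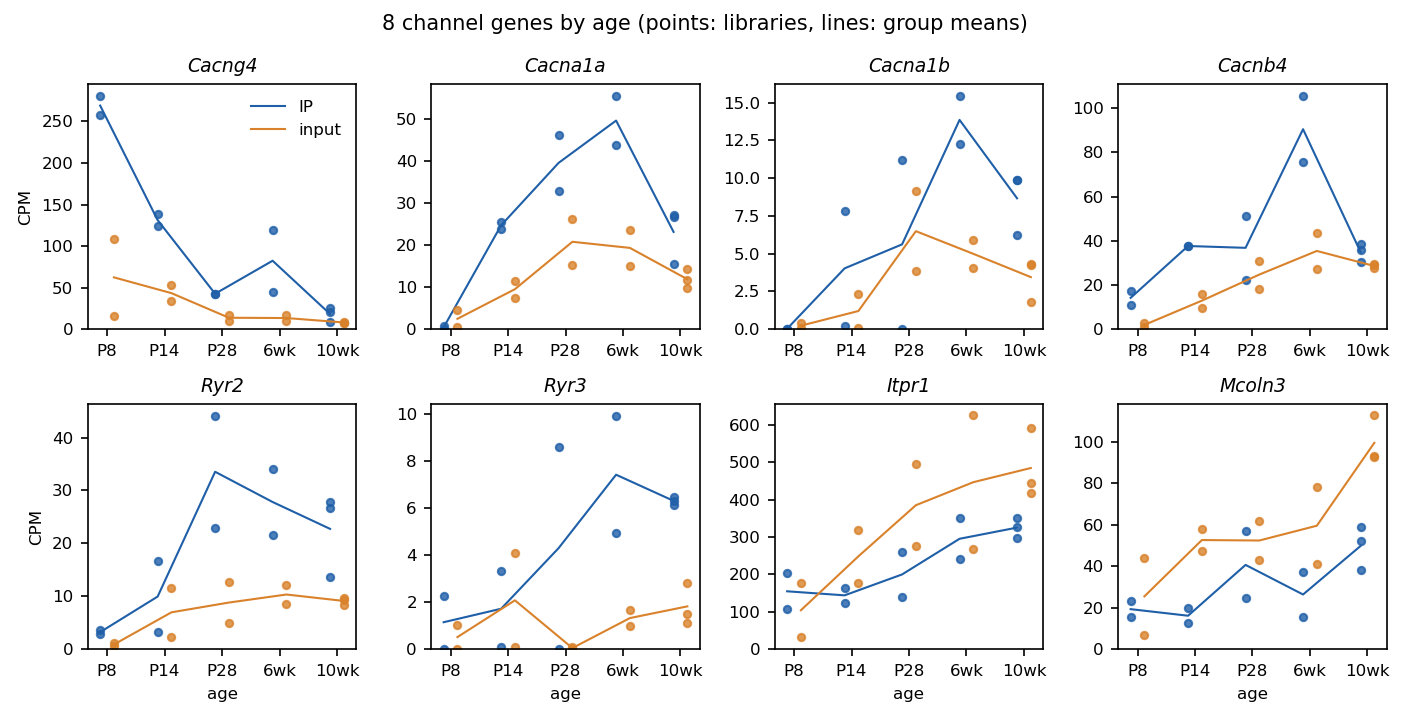
CPM of 8 channel genes (panels, linear vertical axes from 0) at 5 ages (horizontal) in IP (blue) and input (orange); points are libraries and lines join group means. The mean of Cacng4 in IP goes from 269 CPM at P8 to 18.3 CPM at 10 weeks, Cacna1a climbs after P8, and Itpr1 and Mcoln3 run higher in input at later ages.

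The third comparison was the difference of the 2 age changes, that is, whether the IP against input difference itself moved with age. No channel gene passed, nor did any other gene (0%; limma adjusted p under 0.05). At an unadjusted p under 0.05 there were 622 genes of all and 0 channel genes. Without P8 input 1 genes were called, mostly as lower, with Cacnb4 as the only channel gene. P8 input 2 was then the only P8 input library, and the median over all genes went from -0.15 to -0.65. edgeR called 21 genes and no channel gene, and DESeq2 called 240 genes with 1 channel gene, the gamma subunit Cacng3. In IP at the ages compared, Cacng3 was at 0 to 0.691 CPM in young and 0.435 to 5.26 CPM in adult libraries. Relative to the median gene, the largest estimate was that of Ryr3 (1.64, SE 0.82), which was 1.48 as tested (limma adjusted p = 0.999). The 2 estimates that follow are also relative to the median gene. So neither the rise of Cacna1a (1.13, SE 0.78) nor the fall of Cacng4 (-0.30, SE 0.71) was shown to differ between IP and input.

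Levels of named channel genes moved together to a varying degree over the 22 libraries, which share ages, fractions and depth. The highest correlations of log2(CPM + 1) were between Cacna2d1 and Cacnb1 (r = 0.87), Cacna2d1 and Cacna1i (0.82) and Itpr1 and Mcoln3 (0.81). These genes were named for calls in the same libraries, and pooling IP with input can raise r. Within IP the 3 pairs had 0.69, 0.81 and 0.58, and within input 0.85, 0.59 and 0.93. Cacng4 ran against Mcoln3 (-0.65) and Itpr1 (-0.51). Cacna1a and Cacna1b correlated at 0.66 over 11 IP libraries and at 0.97 over the 9 left without P14 IP 1 and P28 IP 2.

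Partner genes of these channels were counted by list over all ages, and the counts are read beside the 20% higher and 12.5% lower among all genes tested. None of these lists was tested against other genes. Of 16 tested partners of voltage-gated channels 5 were higher in IP and none lower, among them the active zone scaffolds Bsn (1.40), Erc2 (1.43) and Erc1 (1.05), and the calcineurin subunit Ppp3ca (0.68). Of 8 store-operated entry partners 1 was higher, Tmem110 (0.83), and 2 were lower, Saraf, which shuts the pathway off (-1.82), and Esyt1, a membrane contact tether (-1.45). Of 15 genes of inositol trisphosphate production 3 were higher, Plch2 (1.32), Gnaq (0.78) and Plcb4 (0.87), and Gna14 was lower (-1.47).

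Beside the same 20% higher and 12.5% lower among all genes, of 21 partners of ryanodine and inositol trisphosphate receptors 3 were higher and 4 lower. They included Jph4 (1.25) and Jph2 (0.75), junctophilins that hold the store against the membrane, and Tmco1 (-1.97) and Erp44 (-1.09) of the endoplasmic reticulum. Of 16 pumps and exchangers 2 were higher, Atp2b2, the calcium pump of hair bundles (1.08), and Slc8a2 (1.22), and 3 lower, with Atp2c2 (-1.50) and Atp2a3 (-1.32). Of 9 genes of mitochondrial calcium transport 1 was higher, the exchanger Slc8b1 (0.92), and 4 lower, with Smdt1 (-1.66), Letm1 (-1.55) and Micu2 (-1.48). Of 9 calcium buffers and sensors 1 was higher, Ocm of outer hair cells (2.31), and 5 lower, with S100a1 (-1.99), Calb2 (-1.54) and Pvalb (-1.40). Of 9 endolysosomal and polycystin partners 1 was higher, Pkd1 (0.65), and none lower. All these values are log2 differences relative to the median gene. Each named gene passed on its difference before that median was taken off (limma adjusted p at most 0.031).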

How the data were processed

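RNA sequencing libraries (NEBNext Ultra Directional, per the labels' protocols) were aligned to GRCm38 with TopHat. The submitters' processing notes name both; for the counting tool and its strand setting the record is silent (not given in the sources used here). The deposited values are CPM made by the authors over all reads, including 5 entries that name no gene; these 5 were left out of the tests. Whole reads were recovered from the CPM steps for 100% of values (tolerance 0.01 reads). Symbols and exon lengths came from GENCODE M21, in which 49412 gene IDs were found.

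The test was limma 3.58.1 (R 4.3.3) on log2(CPM + 1) with 1 mean for each of 10 groups, on genes at 1 CPM or more in at least 2 libraries, two-sided, with Benjamini-Hochberg adjustment over all 18737 genes; p-values measure the spread between these libraries. The count tests were edgeR 4.0.16 and DESeq2 1.42.0 on the recovered reads, as alternatives; edgeR called 7665 genes over all ages. Alternatives also covered the pseudocount (0.25), filter, scaling, low-yield libraries, block, age grouping and each library left out. Leaving out a library that a comparison does not use could move only the shared estimate of the spread. Values relative to the median gene are printed with the SE and p of the value before the median was taken off. Genes were named if they passed in any comparison or led their subgroup per kilobase; other channel genes given with values were chosen after these were seen. Members and lists were chosen with earlier results of these data known. Values of 1 channel gene that entered the fits and counts are not reported here, and the gene is not drawn.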

Additional observations from a re-analysis of the deposited data

How the results depend on the processing

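Of 22 calls of channel genes none changed direction under any alternative. Over all ages, where 14 channel genes passed, 22 passed without the 3 low-yield libraries, 22 with TMM scaling and without those libraries (chosen after seeing the data, as was TMM scaling with the replicate block), and 9 to 19 with 1 library left out, 9 without P14 input 1. In IP between young and adult ages 5 passed, against 3 with a pseudocount of 0.25, 8 with CPM over gene reads, 12 with DESeq2 and 1 to 8 with 1 library left out, 1 without 6-week IP 1. In input 3 passed, against 1 without a filter, 5 with DESeq2, 1 in a fit of input libraries alone, 5 with P28 counted as adult, 7 with TMM scaling and without the low-yield libraries, and 1 to 19 with 1 library left out, the 19 without P8 input 1. For the change of enrichment 0 passed, against 1 with DESeq2 and 0 to 1 with 1 library left out. Over all genes the count went from 6087 to 9361 over all ages with TMM scaling and without the low-yield libraries. In IP it went from 643 to 1709 with TMM scaling, 1156 with CPM over gene reads, 1524 with edgeR, 2649 with DESeq2, 1251 without the low-yield libraries, 1517 with both changes and 132 to 1612 with 1 library left out. In input it went from 515 to 938 with TMM scaling, 1537 with DESeq2, 1111 without the low-yield libraries, 1421 with both changes, 163 with input libraries alone and 158 to 6961 with 1 library left out. For the change of enrichment it went from 0 to 35 without a filter, 14 with TMM scaling, 21 with edgeR, 240 with DESeq2, 7 and 15 with TMM scaling without the low-yield libraries or with the block, and 0 to 2466 with 1 library left out. Where a group kept 1 library, that library was assumed to vary like the others. Without P8 input 1 its group kept only P8 input 2, in which Gm42418 took 58.3% of gene reads. The cause of these shifts was not tested. The shared number of IP and input libraries was not treated as a pairing in the main test. Deviations of same-numbered libraries correlated at 0.052 to 0.423, all positive though not all above 0.1. With the best other number of the same age they correlated at -0.423 to -0.010. At an age with 2 libraries the second value is the first with its sign turned. Whether the libraries are paired was not tested. With the replicate block 16 channel genes passed over all ages and 0 for the change of enrichment, and with TMM scaling and the block 20 and 0. Counting error was large for Cacna1b, Ryr1 and Ryr3, which had a few reads in several libraries.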
